A study of Mus musculus with 84 samples.

Results

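The genes described are the nuclear-encoded subunits of oxidative phosphorylation (OXPHOS) in the liver of mice fed an organophosphate pesticide (OPP). They were chosen by name from the table of estimated counts as protein-coding Nduf subunits (Ndufa, Ndufb, Ndufc, Ndufs, Ndufv), Sdha to Sdhd, Uqcr, Cyc1, Cycs, Cox4 to Cox8 and Atp5 genes, with Ndufaf genes and pseudogenes left out. Of 17695 rows in the table, 68 fit these names and 60 of those had a median count above 8 over the mice. They carry 59 symbols, because Atp5po has 2 gene IDs. By complex there were 29 rows of complex I, 3 of complex II, 8 of complex III, 1 of cytochrome c, 7 of complex IV and 12 of complex V.

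The livers came from 84 male B6C3F1 mice, 8 weeks old, and their RNA was profiled by TempO-Seq, a targeted method that counts pairs of short oligos joined on their matching transcript. The 12 groups of 7 mice received AIN-93G diet alone (control, 0 ppm) or with fenthion (FT) at 2.5, 5, 10 or 20 ppm, methidathion (MT) at 10, 25, 50 or 100 ppm, or parathion (PT) at 20, 40 or 80 ppm for 7 days. Every group was spread over 3 experimental blocks, with 2 mice in block 1, 3 in block 3 and 2 in block 4. Expression Analysis (EA) isolated the RNA of 77 mice, and the U.S. EPA that of 7. The EPA mice were 2 in the control group, 2 fed FT 20 ppm, 2 fed MT 100 ppm and 1 fed MT 10 ppm. Total counts lay between 6950380 and 15300560 per mouse.

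OXPHOS is the route by which mitochondria turn electrons from nutrients into ATP. Complex I takes electrons from NADH and complex II from succinate, complex III passes them to cytochrome c, and complex IV hands them to oxygen. The proton gradient that complexes I, III and IV build drives complex V, the ATP synthase. Hepatocytes are rich in mitochondria, and their subunit genes are known as housekeeping genes that tend to move together when mitochondrial content changes.

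The subunits stayed close to the control level at every dose. A gene was called where edgeR's quasi-likelihood test gave a Benjamini-Hochberg adjusted p under 0.05 over the 10415 genes with a median count above 8, in 1 model of all 84 mice with block and RNA isolator as terms. At PT 80 ppm, where 18.6% of all genes tested were called, 1 of the 60 subunit rows was called, and it was lower, as were 8.89% of all genes. At FT 10 ppm 2 rows were called, both higher, where 1.57% of all genes were called and 0.835% were higher. At the other 9 doses 0 rows were called, with between 0% and 0.0768% of all genes called. No subunit row was called with a change of at least 2-fold at any dose, while 3.3% of all genes were at PT 80 ppm. The share of all genes so called was 0.211% for FT 10 ppm and 0.048% for MT 100 ppm, and no other dose exceeded 0.0096%.

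**Figure D1:**
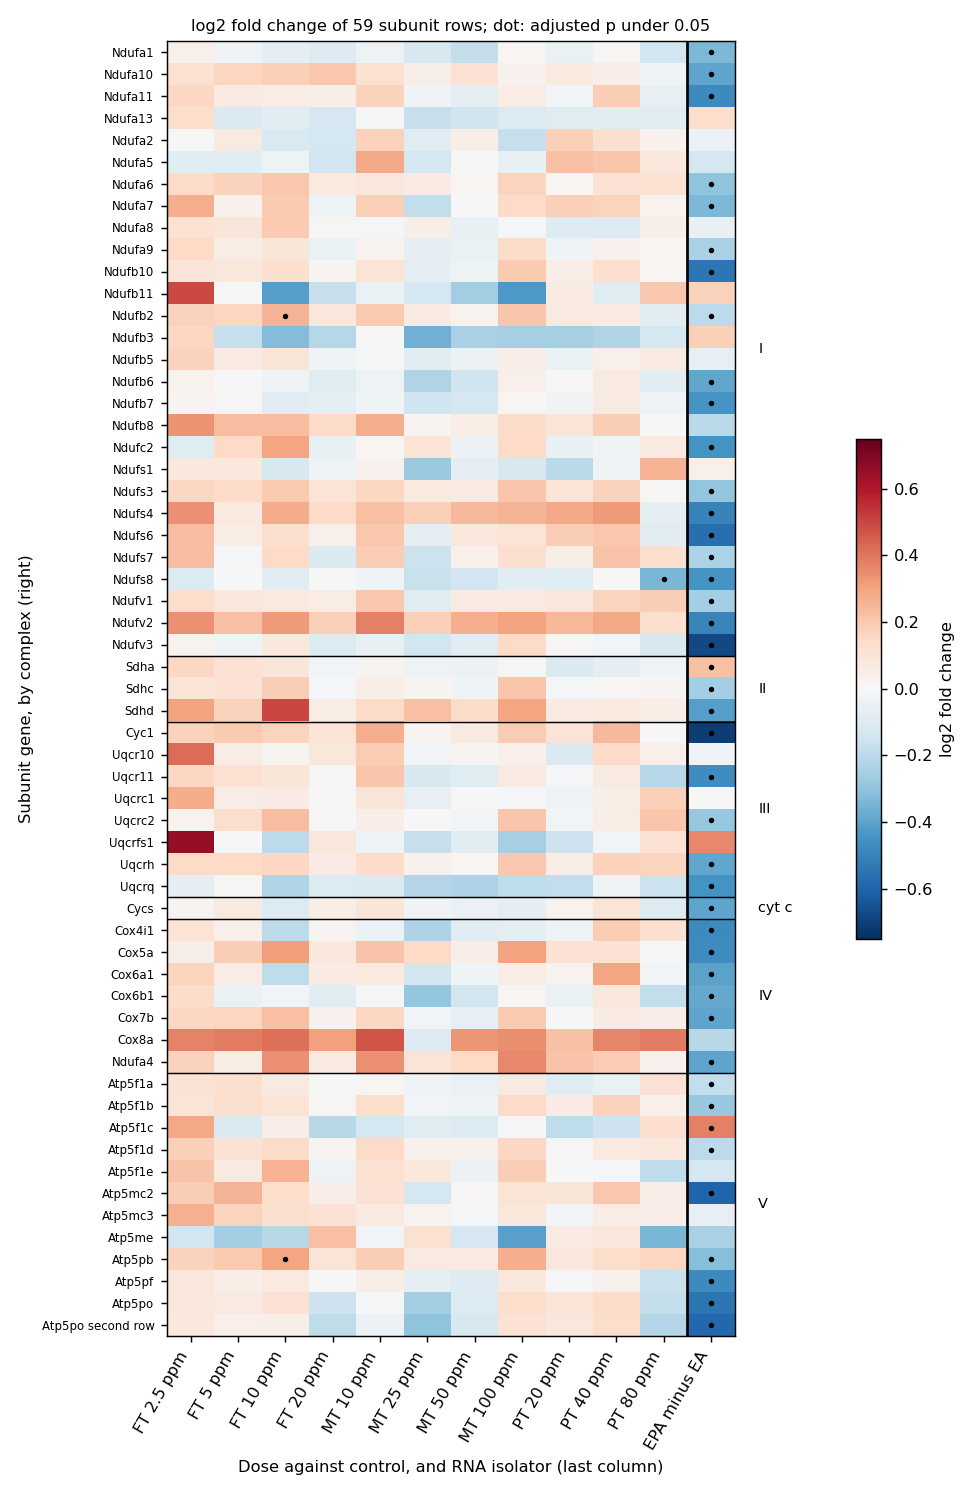
Each of the 59 rows drawn is a subunit gene, ordered by complex, and each of the first 11 columns is a dose against control. The last column is RNA isolated at EPA minus EA, color is the fitted log2 fold change and a dot marks an adjusted p under 0.05. The dose columns hold 3 dots and the isolator column 43.

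At the 9 doses with 0 calls by edgeR, some rows still had an unadjusted p under 0.05. It was reached by 18 of 60 rows at FT 2.5 ppm (10.7% of all genes), 7 at FT 5 ppm (7.59%) and 0 at FT 20 ppm (3.98%). With MT it was reached by 11 rows at 10 ppm (9.97%), 4 at 25 ppm (5.79%), 3 at 50 ppm (3.99%) and 17 at 100 ppm (13.7%). With PT it was reached by 1 row at 20 ppm (5.91%) and 5 at 40 ppm (8.51%). As a share of the 60 rows, this was above the share of all genes at FT 2.5 and 5 ppm and at MT 10 and 100 ppm. It was below at FT 20 ppm and PT 20 ppm. At MT 25 and 50 ppm and at PT 40 ppm it lay near the share of all genes. DESeq2 called 1 row at MT 100 ppm and 0 at the other 8 of these doses. All dose comparisons share the same 7 control mice, so their values are not independent of each other. The median log2 fold change of the 60 rows was highest at FT 2.5 ppm, at 0.15, where 55 rows lay above 0. It was lowest at MT 25 ppm, at -0.06, where 22 rows lay above 0. The median over all genes tested lay between -0.01 and 0.01 at every dose.

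By complex, the median log2 fold change at PT 80 ppm was 0.01 in complex I, 0.02 in complex II, 0.07 in complex III, 0.03 in complex IV and 0.04 in complex V, so the complexes sat together near 0. The precision was enough to bound these changes. The median standard error (SE) of a subunit's log2 fold change at PT 80 ppm was 0.11, compared with 0.15 over all genes. The residual SD between mice, after group, block and isolator, had a median of 0.19 on the log2 scale over the subunits and 0.24 over all genes. At PT 80 ppm the 95% interval of all 60 rows lay within a 2-fold change in either direction, and that of 56 rows within a 1.5-fold change. At the other doses the interval lay within 1.5-fold for between 51 rows (FT 10 ppm) and 58 rows (FT 5 ppm), with 53 at MT 100 ppm. Over the 11 doses an interval reached beyond 2-fold in 1 case, Uqcrfs1 at FT 2.5 ppm, with an upper bound of 1.06 on the log2 scale. Uqcrfs1 encodes the Rieske iron-sulfur protein of complex III.

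The summed level of the 60 rows was taken in each mouse, as counts per 1000000 (CPM) scaled with the trimmed mean of M values (TMM). In the control group the lowest, median and highest sums were 9074, 12011 and 13334 CPM. At PT 80 ppm they were 10570, 11858 and 13521 CPM, and at FT 10 ppm 11761, 12878 and 14022 CPM. Both groups overlapped the control group. The 2 control mice isolated at EPA held the lowest control sums, 9074 and 9373 CPM, and the 5 isolated at EA ranged from 9998 to 13334 CPM. In bulk liver, fewer mitochondria-rich cells and less subunit RNA per cell cannot be told apart.

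**Figure D2:**
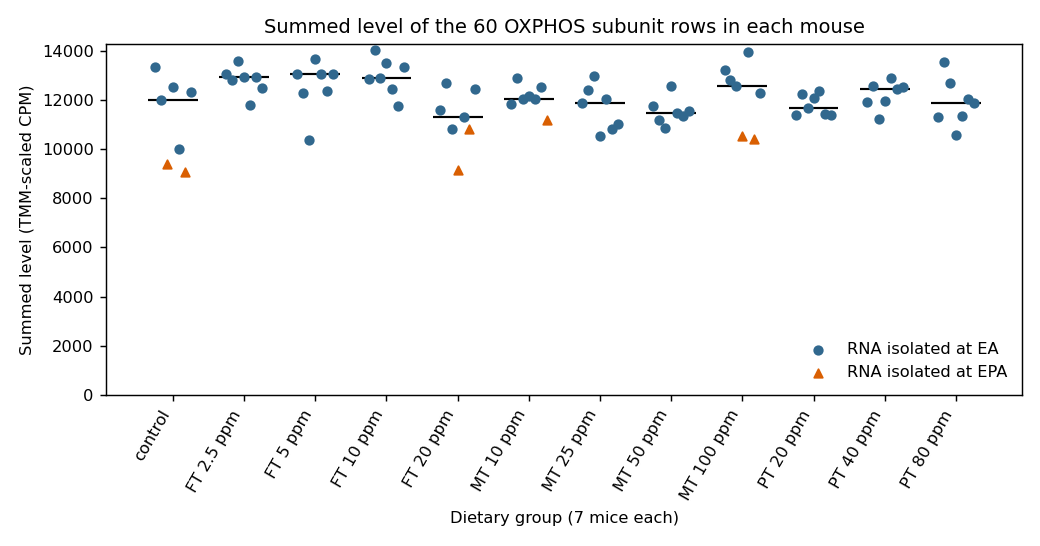
Each point is the summed TMM-scaled CPM of the 60 subunit rows in 1 mouse, circles for RNA isolated at EA and triangles at EPA, with a line at the group median. The EPA mice lie between 9074 and 11193 CPM and the EA mice between 9998 and 14022 CPM.

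Among the dehydrogenase subunits of complex I, Ndufs8 was the row called at PT 80 ppm. It encodes a core subunit that carries iron-sulfur clusters (gene on chromosome 19, 3958862 to 3962948, GRCm39). In the control mice its level ranged from 76.9 to 152 CPM with a median of 108 CPM, and at PT 80 ppm from 62.7 to 123 CPM with a median of 91 CPM. The groups overlapped widely. The fitted log2 fold change was -0.34 (SE 0.11, edgeR adjusted p = 0.0228). The call was lost without control replicate 1 (log2 fold change -0.25, edgeR adjusted p = 0.125), without control replicate 4 (-0.29, adjusted p = 0.0786), without PT 80 ppm replicate 1 (-0.26, adjusted p = 0.117) and without PT 80 ppm replicate 4 (-0.30, adjusted p = 0.053). Among mice isolated at EA, the difference in mean log2(CPM + 1) was -0.60 in block 1, -0.17 in block 3 and -0.37 in block 4. The block 4 difference rests on 1 EA control mouse. At PT 20 ppm the median was 107 CPM and at PT 40 ppm 121 CPM, both within the control range.

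The other core subunits of complex I were not called at PT 80 ppm. Of the 7 core subunits, 6 had a point estimate above 0 there, with a median log2 fold change of 0.12. Of the 22 accessory subunits 0 were called, with a median of -0.02. Ndufs8 was thus the only core subunit whose estimate lay below 0 at PT 80 ppm.

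The 2 rows called at FT 10 ppm were Atp5pb and Ndufb2, both higher. Atp5pb encodes the peripheral stalk subunit b of ATP synthase (chromosome 3, 105849374 to 105867415, GRCm39). Its level ranged from 785 to 1359 CPM in the control mice, with a median of 1049 CPM, and from 1192 to 1532 CPM at FT 10 ppm, with a median of 1308 CPM. The highest control mouse lay above the median at FT 10 ppm. The log2 fold change was 0.30 (0.295, SE 0.07, edgeR adjusted p = 0.03). Among EA mice the difference was 0.18 in block 1, 0.51 in block 3 and 0.13 in block 4, which held 1 EA control mouse.

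Ndufb2 encodes an accessory subunit of the membrane arm of complex I (chromosome 6, 39569490 to 39595671, GRCm39). Its level ranged from 226 to 297 CPM in the control mice and from 306 to 370 CPM at FT 10 ppm, so that the groups did not overlap. The log2 fold change was 0.26 (SE 0.07, edgeR adjusted p = 0.0402). The difference among EA mice was 0.29 in block 1, 0.33 in block 3 and 0.09 in block 4, again with 1 EA control mouse in block 4. At FT 2.5 and 5 ppm the log2 fold change was 0.17 and 0.20 for Atp5pb and 0.17 and 0.16 for Ndufb2, with no call. At FT 20 ppm the log2 fold change was 0.10 for Atp5pb and 0.08 for Ndufb2, again with no call.

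The calls at FT 10 ppm depended on single control mice. Without control replicate 5, the EA mouse with the lowest sum, or without control replicate 6, isolated at EPA, 0 rows were called at FT 10 ppm. Without replicate 1 there was 1 and without replicate 2 there were 4. With the EA mice alone 0 rows were called, and the adjusted p was 0.0761 for Atp5pb and 0.0835 for Ndufb2 by edgeR.

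**Figure D3:**
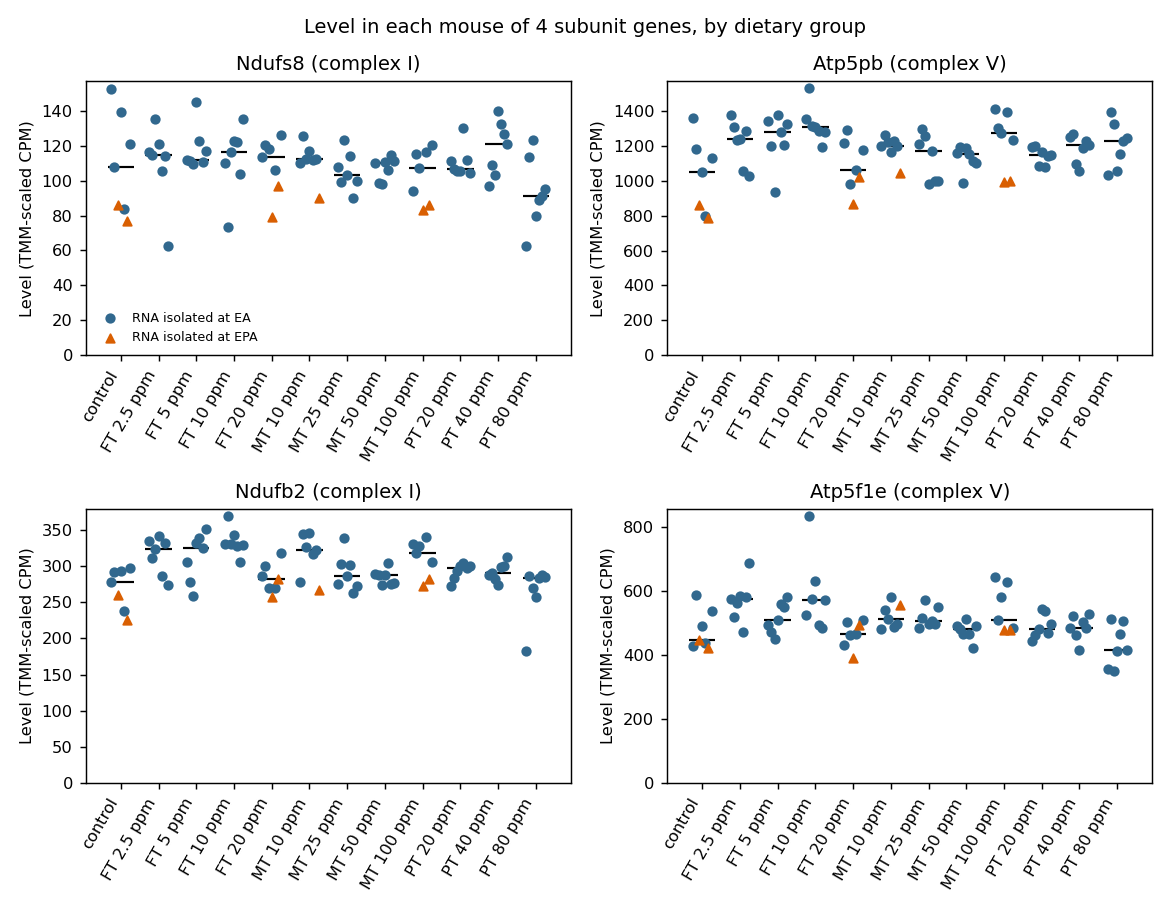
Level of Ndufs8, Atp5pb, Ndufb2 and Atp5f1e in each mouse, in TMM-scaled CPM, by group, with circles for EA, triangles for EPA and a line at the group median. Ndufb2 at FT 10 ppm lies at 306 CPM and above, and the control mice at 297 CPM and below.

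The further rows named at FT 10 ppm, taken by lowest p within each complex, did not pass the test. In complex I these were Ndufv2 (log2 fold change 0.32, SE 0.09), Ndufs3 (0.20, SE 0.07) and Ndufa6 (0.20, SE 0.08), with edgeR adjusted p between 0.0579 and 0.147. In complex III they were Uqcrc2 (0.23, SE 0.09), Uqcrh (0.15, SE 0.06), Uqcrq (-0.22, SE 0.10) and Cyc1 (0.17, SE 0.11). In complex IV they were Cox5a (0.31, SE 0.12), Cox7b (0.23, SE 0.08), Ndufa4 (0.34, SE 0.17) and Cox8a (0.41, SE 0.20). In complex V they were Atp5f1e (0.26, SE 0.09), Atp5f1d (0.15, SE 0.06) and Atp5mc3 (0.12, SE 0.08). Their adjusted p values in complexes III to V lay between 0.104 and 0.443 by edgeR. For Cyc1 and Atp5mc3 the unadjusted p was not low either, at 0.143 and 0.122 by edgeR. With the called rows included, 18 of 60 rows had an unadjusted p under 0.05 at this dose, a larger share than the 17.7% of all genes.

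Complex II is succinate dehydrogenase, the enzyme shared with the citric acid cycle. Sdha, the flavoprotein subunit, ranged from 395 to 608 CPM in control mice and from 407 to 551 CPM at PT 80 ppm. Sdhc, a membrane anchor, ranged from 284 to 428 CPM and from 287 to 447 CPM in the same groups. Sdhd, the other anchor, ranged from 24.7 to 56.3 CPM and from 17 to 61 CPM. The groups overlapped for all of them, with log2 fold changes at PT 80 ppm of -0.03, 0.02 and 0.06, and edgeR adjusted p of 0.87, 0.915 and 0.858. At FT 10 ppm Sdhd had the highest point estimate of the 60 rows, 0.50 (SE 0.16, edgeR adjusted p = 0.0775).

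The electron carriers between complexes III and IV were similar. Cyc1, cytochrome c1 of complex III, ranged from 91.1 to 216 CPM in control mice and from 115 to 235 CPM at PT 80 ppm (log2 fold change -0.005, SE 0.11). Cycs, cytochrome c, ranged from 8.43 to 14.5 CPM and from 8.67 to 13.5 CPM (log2 fold change -0.10, SE 0.10).

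Among the complex IV paralogs, the muscle forms did not pass the count limit, and neither did Cox7a2, a form found in liver. Cox6a2 and Cox7a1, known from heart and skeletal muscle, had a median count of 0, as did Cox4i2, known from lung. The other rows at or below the limit were Ndufa4l2 (median count 1), Ndufa3 (2), Cox7a2 (3), Cox6b2 (3) and Atp5mk (4). The lowest rows above it were the second gene ID of Atp5po (9.83) and Ndufb11 (20). Cox4i1, Cox6a1, Cox6b1 and Cox8a passed the limit, and none of them was called at PT 80 ppm. Their log2 fold changes there were 0.12 (SE 0.14), -0.02 (SE 0.16), -0.19 (SE 0.12) and 0.39 (SE 0.20). That of Cox8a was the highest of the 60 rows. A low count in this assay can also reflect the detector oligo, so levels were not compared between genes. Atp5if1, Cox7a2l, Cox8b and Sdhb were not analysed here.

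A test for any difference among the 12 groups called 11 of the 60 rows, compared with 20.3% of all genes. By order of p these were Ndufb2, Atp5f1e, Ndufa9, Uqcrfs1, Atp5pb, Ndufa1, Cox7b, Uqcrh, Ndufv2, Uqcrc1 and Atp5f1c, 4 of complex I, 3 of complex III, 1 of complex IV and 3 of complex V. The lowest edgeR adjusted p were 0.000899 for Ndufb2 and 0.0014 for Atp5f1e. The share of subunits called was 18.3%. The count fell to 6 with EA mice only, 6 with no filter on low counts and 2 without block and isolator in the model. Some of these rows had a high mouse at FT 2.5 ppm. Uqcrfs1 ranged from 11.3 to 54.5 CPM there (median 14.9), and the highest mouse of all other groups had 24.8 CPM. Atp5f1c ranged from 289 to 761 CPM (median 299), with 481 CPM the highest elsewhere. Uqcrc1 ranged from 104.9 to 176.5 CPM (median 111.3), with 138.1 CPM the highest elsewhere.

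A linear dose trend was fitted over all 84 mice with a slope for each OPP. With PT it was called for 3 rows, against 26% of all genes. All 3 slopes were below 0, and 12% of all genes were called with such a slope. The fitted change at 80 ppm is the slope scaled to that dose, not a contrast with the control group. It was -0.28 (SE 0.07, edgeR adjusted p = 0.00235) for Atp5f1e, the epsilon subunit of ATP synthase, -0.18 (SE 0.06, adjusted p = 0.0115) for Ndufb2 and -0.25 (SE 0.09, adjusted p = 0.0395) for Uqcr11, a small subunit of complex III. Compared directly with control at PT 80 ppm, the log2 fold changes were smaller, at -0.19, -0.08 and -0.21 in the same order. None of them was called (edgeR adjusted p between 0.136 and 0.449). They were 0.00, 0.07 and -0.01 at PT 20 ppm and -0.02, 0.06 and 0.07 at PT 40 ppm. Atp5f1e had a median of 447 CPM in control mice (range 422 to 587), 482 CPM at PT 20 ppm (444 to 543), 484 CPM at PT 40 ppm (417 to 529) and 415 CPM at PT 80 ppm (352 to 512). The medians at PT 20 and 40 ppm lay above the median of all 7 control mice. All PT mice were isolated at EA, and both medians lay below that of the 5 EA control mice, 491 CPM. All groups overlapped. The Ndufb2 control median was 278 CPM, and 292 CPM in the EA control mice. At PT 80 ppm its median was 283 CPM, where replicate 1 stood apart at 182 CPM and the next mouse had 257 CPM. Without that mouse its fitted change was -0.12 (SE 0.06, edgeR adjusted p = 0.118) and the call was lost, and Atp5f1e was the 1 row called. The call of Uqcr11 was lost without PT 80 ppm replicate 1 (-0.19, adjusted p = 0.177), replicate 4 (-0.19, adjusted p = 0.132) or replicate 5 (-0.22, adjusted p = 0.0907). Atp5f1e was called in 7 of 7 such fits. With control and PT mice only, 1 row was called in place of 3. With FT and with MT 0 rows were called by edgeR, where 0.0096% and 0.0384% of all genes were called. An unadjusted p under 0.05 was reached by 1 of 60 rows with FT (4.95% of all genes) and 5 of 60 with MT (7.36%).

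FT and MT, dimethyl esters, and PT, a diethyl ester, were compared in 2 pairs of groups at equal dietary levels. FT 10 ppm and MT 10 ppm differed in 0 of 60 rows and 0% of all genes by edgeR, with 5 rows at an unadjusted p under 0.05 (7.65% of all genes) and 0 by DESeq2. FT 20 ppm and PT 20 ppm differed in 0 rows and 0% of all genes, with 1 row at an unadjusted p under 0.05 (3.4% of all genes) and 0 by DESeq2. The 95% interval of the difference lay within 2-fold for all 60 rows in both pairs. It lay within 1.5-fold for 56 rows in the first pair and 54 in the second. Equal ppm in the diet does not make the doses equally potent, and none of the other levels matched.

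**Figure D4:**
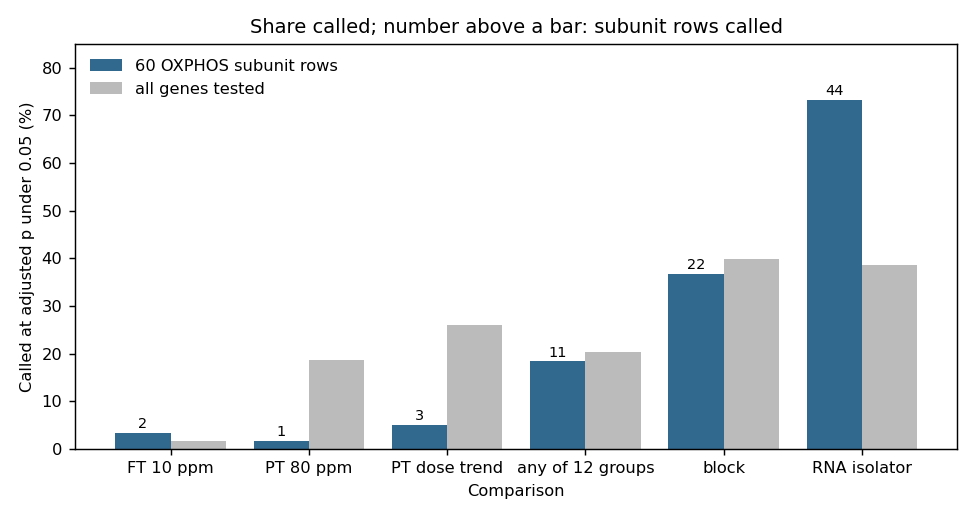
Bars show the percent of the 60 subunit rows (dark) and of all 10415 genes tested (grey) called at an adjusted p under 0.05, and the number above a dark bar counts the rows. For the RNA isolator 44 rows were called, against 1 at PT 80 ppm.

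Most calls among the subunits came between the places of RNA isolation. With group and block in the model, 44 of the 60 rows were called for EPA against EA, compared with 38.7% of all genes. Of these, 42 were lower in the EPA mice, against 19% of all genes called lower and 19.6% called higher. The median log2 difference was -0.31 over the subunits and 0.00 over all genes (0.004). With total counts as the only scaling, which moved the median of all genes to 0.15, the subunits had a median of -0.17 and 28 rows were called. The subunits were thus lower relative to all genes under both scalings.

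The calls were spread over the complexes. The called rows were 20 of 29 in complex I, 3 of 3 in complex II, 5 of 8 in complex III, Cycs, 6 of 7 in complex IV and 9 of 12 in complex V. In complex II Sdhc and Sdhd were lower and Sdha was higher in the EPA mice. The mean of the complex II sum was 899 CPM in EA mice and 900 CPM in EPA mice. Cyc1 had the largest difference, -0.70 (SE 0.09, edgeR adjusted p = 8.48e-09), and ranged from 85.2 to 138 CPM in the 7 EPA mice and from 110 to 235 CPM in the 77 EA mice. Ndufv3, an accessory subunit of complex I, followed with -0.68 (SE 0.08, adjusted p = 1.01e-09), from 247 to 355 CPM in the EPA mice and from 351 to 643 CPM in the EA mice. For Ndufv3 the ranges met only at their edges. Sdha (0.22, SE 0.06, edgeR adjusted p = 0.00289) and Atp5f1c, the gamma subunit of ATP synthase (0.38, SE 0.10, adjusted p = 0.00295), were higher in the EPA mice. These genes were chosen after their values were seen.

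The direction held within groups. In 7 pairs of group and block that held mice of both isolators, between 41 and 57 of the 60 rows were lower in the EPA mouse. The median difference ranged from -0.20 (MT 10 ppm, block 1) to -0.40 (control, block 4), while that of all genes lay between -0.02 and 0.01. Each pair held 1 EPA mouse and 1 or 2 EA mice, so none was tested alone. Since 2 of the 7 control mice and none at 8 of the doses were EPA mice, the isolator moves with the dose comparisons. Without block and isolator in the model, 10 rows were called at FT 10 ppm instead of 2, and 3 at PT 80 ppm instead of 1.

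Marker levels of other liver cells overlapped between the isolators. The summed level of 6 endothelial genes ranged from 146 to 206 CPM in EA mice and from 135 to 179 CPM in EPA mice, and that of 11 Kupffer cell and leukocyte genes from 21.8 to 128 CPM and from 52.2 to 107 CPM. That of 11 hepatocyte genes ranged from 29773 to 60189 CPM in EA mice and from 28554 to 38463 CPM in EPA mice, and 6 of them were called lower, against 19% of all genes. For the isolator 1 Kupffer cell and leukocyte gene, 1 endothelial gene and 1 erythroid gene were also called lower, and 1 endothelial and 1 muscle gene higher. At PT 80 ppm the hepatocyte sum ranged from 40587 to 60189 CPM, compared with 28554 to 54653 CPM in control mice, and 3 of 11 hepatocyte genes were called higher (9.75% of all genes). At this dose 4 of 8 Kupffer cell and leukocyte genes tested were called lower, as were 4 of 4 erythroid genes, 1 of 5 stellate and fibroblast genes and 1 of 1 cholangiocyte gene, against 8.89% of all genes. In the stellate and fibroblast list 1 further gene was called higher. Of the muscle genes, Ckm and Myh1 had a median count of 0, and of the cholangiocyte genes Epcam did. The part of these cells in the subunit results was not tested.

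Experimental block was called for 22 of the 60 rows, a share slightly below the 39.9% of all genes. These were 12 of complex I, 2 of complex III, 4 of complex IV and 4 of complex V.

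Genes that serve the same pathway are given from lists by counts. At PT 80 ppm the calls were 4 of 34 assembly factors, 0 of 7 mitochondrial DNA-encoded subunits, 6 of 64 mitochondrial ribosomal proteins, 2 of 13 citric acid cycle genes, 3 of 12 regulators of mitochondrial biogenesis and 1 of 6 carrier and uncoupling genes, compared with 18.6% of all genes. In percent these were 11.8, 0, 9.38, 15.4, 25 and 16.7. The regulators alone lay above the share of all genes, but 3 of 12 genes is too few to set them apart. Of the mitochondrial DNA-encoded subunits, 0 had an unadjusted p under 0.05 by edgeR and 0 were called by DESeq2. In the regulators, Ppargc1a, a coactivator known to drive mitochondrial biogenesis and gluconeogenesis, rose by 1.10 on the log2 scale (SE 0.20, edgeR adjusted p = 5.12e-05), and all 3 called regulators were higher. Of the 4 assembly factors called 2 were higher and 2 lower. The one with the lowest p, Pet100, which serves complex IV, fell by 0.42 (SE 0.10, adjusted p = 0.000736). At FT 10 ppm 1 gene of these lists was called, Mrpl13 of the mitochondrial ribosome (0.44, SE 0.12, adjusted p = 0.04).

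The isolator calls in the same lists were 12 of 34 assembly factors (8 lower), 6 of 7 mitochondrial DNA-encoded subunits (5 lower), 40 of 64 mitochondrial ribosomal proteins (36 lower), 7 of 13 citric acid cycle genes (5 lower), 5 of 12 regulators (2 lower) and 3 of 6 carriers (3 lower). Among all genes 38.7% were called and 19% were lower. The assembly factors, at 35.3%, and the regulators, at 41.7%, lay near that share, and the mitochondrial ribosomal proteins were at 62.5%. The median log2 difference was -0.25 for the mitochondrial ribosomal proteins and -0.07 for the citric acid cycle.

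Pseudogene rows with the names of subunits were left out, and 7 of 11 passed the count limit. Their aligned transcripts were between 97% (Cox6c2 and Cox6c) and 100% (Ndufb4c and Ndufb4, over 390 bases) identical to a transcript of the subunit gene, by blastn on GENCODE transcripts. Cox5b, Cox6c, Cox7c, Ndufa12, Ndufab1, Ndufb4 and Ndufs5 themselves were not analysed here, so reads of these subunits and of the pseudogenes cannot be told apart. Of the 7 rows, 0 were called at PT 80 ppm by edgeR, 1 at FT 10 ppm (Ndufb4c, 0.35, edgeR adjusted p = 0.0461, against 1.57% of all genes) and 6 for the isolator, all lower in EPA mice, against 38.7% of all genes called and 19% lower. Of all genes 18.6% were called at PT 80 ppm, where 1 of the 7 rows had an unadjusted p under 0.05 and 0 were called by DESeq2.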

How the data were processed

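The authors aligned quality-trimmed reads to mm39 (STAR) and counted them per Ensembl transcript in Partek with an E/M step. These estimated counts, deposited by the authors, carry no scaling. The authors also deposited log2 CPM values, entered here as a score, adjusted for block and RNA isolator in Partek. Those served only as an alternative, tested gene by gene with a one-way F test of each OPP's doses and the control group.

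Estimated counts were rounded. Genes were named with GENCODE on GRCm39, the same assembly as mm39 (17660 of 17695 IDs). The 10415 genes with a median count above 8 were fitted with edgeR 4.0.16 in R 4.3.3 (TMM, quasi-likelihood, group, block and isolator), with DESeq2 1.42.0 as an alternative and limma 3.58.1 loaded for edgeR. Intervals of 95% used the t distribution on 69 residual degrees of freedom. Tables and figures used Python 3.11.15, numpy 2.4.6, pandas 2.3.3, scipy 1.17.1 and matplotlib 3.10.9. On simulated counts for PT 80 ppm against control over 10415 genes, edgeR recovered 92 of 200 genes changed 1.5-fold, 183 of 200 changed 2-fold and 198 of 200 changed 4-fold.

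Groups, blocks and isolators came from the sample labels, and replicate numbers follow the order of the samples. The named genes were all rows of complex II, Cyc1, Cycs, the complex IV paralogs, up to 4 rows of lowest p per complex at the dose with most calls, every row called at another dose and the rows nearest the count limit. The rows and lists were chosen with earlier results of these data known. The assay had no molecular identifiers, so depth speaks to counting error only. Some individual genes are not reported here.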

Additional observations from a re-analysis of the deposited data

Results flagged for a closer look

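For the summed level and for Ndufs8, Atp5pb, Ndufb2 and Atp5f1e, the gap of the lowest and highest mouse to its neighbour was compared with the range of its group in 60 cases, of which chance flags about 1 in 20. In 8 cases a mouse stood apart. At FT 5 ppm replicate 3 (block 3, EA) was lowest in the summed level, at 10350 CPM, and in Atp5pb, at 936 CPM. Ndufs8 was lowest in FT 2.5 ppm replicate 7, at 62.7 CPM, and in MT 10 ppm replicate 7, the EPA mouse of that group, at 90.3 CPM. It was highest in FT 5 ppm replicate 4, at 145 CPM, and in PT 20 ppm replicate 5, at 130.3 CPM. Ndufb2 was lowest in PT 80 ppm replicate 1, at 182 CPM, where the next mouse had 257 CPM, and Atp5f1e was highest in FT 10 ppm replicate 2, at 833 CPM.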

How the results depend on the processing

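Members called at FT 10 ppm numbered 2. They were 10 without block and isolator terms, 0 with EA mice only, 0 with no filter on low counts, 0 with control and FT mice only and 0 without both EPA control mice, a setting chosen after seeing the data. At PT 80 ppm 1 row was called. That count was 2 with DESeq2, 3 without block and isolator terms, 8 with total counts only and 0 with control and PT mice only. At MT 100 ppm 1 row was called with DESeq2 and 3 with control and MT mice only, and at MT 10 ppm 1 with control and MT mice only. Across the 12 groups the count of 11 became 6 with EA mice only, 6 with no filter and 2 without block and isolator terms. The PT trend count of 3 became 1 with control and PT mice only and 2 with no filter. The isolator count of 44 was 28 with total counts only. Leaving out 1 control mouse gave between 0 and 4 calls at FT 10 ppm and between 0 and 1 at MT 100 ppm. Leaving out 1 control or PT 80 ppm mouse gave between 1 and 3 at PT 80 ppm, but the rows changed, since Ndufs8 was called in 10 of these 14 fits and the calls in the other 4 were of other rows. It was not called with total counts only either. Leaving out 1 PT 80 ppm mouse, chosen after seeing the data, gave between 1 and 5 calls for the PT trend. The cause of these differences was not tested.

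On the deposited adjusted values, where mice are not independent, the F test with a 2-fold limit called 1 row for FT (Ndufb11), 0 for MT and 0 for PT, against 9.93%, 7.9% and 9.39% of all genes. By adjusted p alone it called 45, 57 and 29 of the 60 rows, or 75%, 95% and 48.3%. The shares of all genes were 68.9%, 79.4% and 64.6%, so the subunits lay above them for FT and MT and below for PT. No paired analysis was possible because the replicate numbers only follow the order of the samples and mark no shared animal, litter or day.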
